A study of Mus musculus with 12 samples.

Results

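Alternative first exons are different opening exons through which transcripts of the same gene can begin, often from separate transcription starts. They were described here in mouse cumulus cells. A first exon was identified by its gene, its strand and its inner end, which is the splice donor. A gene was kept when at least 2 of its first exons each had a mean of at least 1 FPKM over the 6 libraries, with an unlisted first exon counted as 0. FPKM is fragments scaled to exon length and to the number of mapped fragments of the library, so it is a level per length. This rule kept 5057 first exons in 2151 genes, of 26866 first exons in 12838 genes. A further 7367 genes had 1 first exon at that level. The share of a first exon is its percentage of the summed first exon FPKM of its gene in that library.

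Use of another first exon changes the 5' untranslated region of an mRNA, and it can also remove or replace the amino terminus of the protein. Each promoter has its own regulatory sequence, so a stimulus can act on 1 promoter of a gene and leave another alone. In granulosa-lineage cells FSH acts through cyclic AMP and protein kinase A, and the gene Crem is a textbook case of an internal promoter that answers cyclic AMP.

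The samples were cumulus cells, the granulosa-lineage cells that surround the oocyte, from mice of the Kunming strain; the labels describe the cell type as granulosa cells of antral follicles. The FSH and FBS group held 3 RNA libraries from cells given follicle-stimulating hormone and fetal bovine serum for 18 h (called treated here), and the untreated group held 3 RNA libraries from cells with the label untreated. No culture time is given for the latter, nor is it stated that libraries came from separate animals or cultures. FSH, serum and any time in culture therefore cannot be told apart, and a p-value measures only the spread between these libraries, which may be technical.

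Libraries 1 and 2 of a group were much closer to each other than to library 3. The median absolute log2 ratio of gene sums was 0.11 between treated libraries 1 and 2 and 0.14 between untreated libraries 1 and 2, against 0.47 to 0.59 for the pairs that included library 3. Libraries 1 and 2 were therefore averaged and counted as 1 sample, which left n = 2 per group in the tests. Untreated library 2 had been written against another catalogue of events: under 0.51% of its shared event numbers pointed to the same position as in another library, against 100% among the other 5. Of the kept first exons, 240 were unlisted only in that library and 95 were listed only there, while 365 were unlisted only in treated library 3. Read depth is not known, so a first exon that is unlisted in a library cannot be given an upper limit. Of 8 granulosa genes looked at, Inha (inhibin alpha) was at 276 to 282 FPKM in the treated libraries and at 350 to 502 FPKM in the untreated ones, Gata4 at 14.2 to 31.6 against 18.5 to 27.3 FPKM, Amh at 4.37 to 12.6 against 1.28 to 2.38 FPKM, and Wt1 at 0.0063 to 0.42 against 3.73 to 9.03 FPKM. Kitl and Nr5a2 were at 9.90 and 57.4 FPKM in treated library 1 but at 0 and 4.95 FPKM in treated library 3. The receptor gene Amhr2 was listed only in untreated library 2, at 13.5 FPKM, and Foxl2 had no first exon row.

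The kept first exons were of very different geometry. In 1571 genes there were 2 of them, in 447 genes 3, in 102 genes 4, and in the remaining genes 5 to 7. Neighbouring starts lay a median of 1294 bases apart; 25.6% of neighbouring pairs were under 100 bases apart and 29.4% were over 10000 bases apart. In 455 of 2906 neighbouring pairs the start was the same and only the splice donor differed. Within 100 bases of a RefSeq start of the same gene lay 2143 first exons (42.4%), and 615 genes (28.6%) had at least 2 such first exons. Another 251 first exons (4.96%) lay at a listed start of a different gene. The other 2663 (52.7%) had no listed start within 100 bases. The median level was 6.33 FPKM at a start of the same gene and 3.34 FPKM where no start was listed. The most upstream first exon had the highest mean level in 1306 genes (60.7%), and the leading first exon of a gene held a median of 70.4% of the sum.

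Promoter sequence helps to show how unlike the starts of 1 gene can be. For 4 genes whose shares are given further on, the 200 bases before the RefSeq start nearest to a kept first exon follow, 5′ to 3′ on the strand of the transcript, from RefSeq on build GRCm38.p6. Capitals mark a GC box (GGGCGG, or CCGCCC on the other strand), a CCAAT box (CCAAT, or ATTGG on the other strand), a TATA box (TATAAA or TTTATA), an E-box (CACGTG) or a cyclic AMP response element (TGACGTCA); none of these overlapped another in the windows shown. Ablim1 encodes an actin-binding LIM protein, and its 3 starts are on the minus strand of chromosome 19. The windows are chr19:57314920-57315119, chr19:57197632-57197831 and chr19:57119025-57119224, with GC contents of 65.5%, 48.0% and 50.5%.
Ablim1 first exon 1: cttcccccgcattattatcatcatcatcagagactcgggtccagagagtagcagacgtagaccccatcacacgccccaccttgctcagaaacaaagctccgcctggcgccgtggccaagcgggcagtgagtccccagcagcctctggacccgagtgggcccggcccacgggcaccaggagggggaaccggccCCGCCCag
Ablim1 first exon 2: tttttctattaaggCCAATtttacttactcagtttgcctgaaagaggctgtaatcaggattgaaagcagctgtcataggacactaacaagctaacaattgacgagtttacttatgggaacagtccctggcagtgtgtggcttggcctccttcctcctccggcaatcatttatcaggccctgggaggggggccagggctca
Ablim1 first exon 3: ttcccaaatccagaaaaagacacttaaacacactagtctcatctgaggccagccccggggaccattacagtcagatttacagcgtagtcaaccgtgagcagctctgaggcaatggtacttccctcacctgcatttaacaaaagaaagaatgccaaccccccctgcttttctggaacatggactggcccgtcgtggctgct
Nfe2l1 encodes a transcription factor of proteasome and stress genes, and its promoters are shown because the groups were apart at the second of them. The windows are chr11:96829969-96830168 and chr11:96824014-96824213 on the minus strand, and each holds 3 CCAAT boxes.
Nfe2l1 first exon 1: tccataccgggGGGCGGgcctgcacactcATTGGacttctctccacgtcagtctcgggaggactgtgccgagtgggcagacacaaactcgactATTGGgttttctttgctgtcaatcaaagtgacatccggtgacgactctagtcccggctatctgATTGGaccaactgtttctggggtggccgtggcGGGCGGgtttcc
Nfe2l1 first exon 3: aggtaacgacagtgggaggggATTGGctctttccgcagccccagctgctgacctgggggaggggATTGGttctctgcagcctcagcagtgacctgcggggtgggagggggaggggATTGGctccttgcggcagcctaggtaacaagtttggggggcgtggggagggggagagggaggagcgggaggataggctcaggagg
Srpk2 encodes a kinase of splicing factors, and its windows differ most in base composition: chr5:23675968-23676167 has 81.0% GC and chr5:23616572-23616771 has 33.5%, both on the minus strand.
Srpk2 first exon 1: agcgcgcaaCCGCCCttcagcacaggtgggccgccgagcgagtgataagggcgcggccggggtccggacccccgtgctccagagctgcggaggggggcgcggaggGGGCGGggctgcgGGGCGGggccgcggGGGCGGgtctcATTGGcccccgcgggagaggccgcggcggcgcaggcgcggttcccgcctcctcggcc
Srpk2 first exon 2: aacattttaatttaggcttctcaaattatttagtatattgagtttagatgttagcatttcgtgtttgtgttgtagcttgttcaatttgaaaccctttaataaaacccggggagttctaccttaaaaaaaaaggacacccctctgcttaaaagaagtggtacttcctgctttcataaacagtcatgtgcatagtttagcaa
Ptges encodes the inducible prostaglandin E synthase, and the window belongs to the downstream first exon, the leading one in untreated cells, at chr2:30903298-30903497 on the minus strand.
Ptges first exon 2: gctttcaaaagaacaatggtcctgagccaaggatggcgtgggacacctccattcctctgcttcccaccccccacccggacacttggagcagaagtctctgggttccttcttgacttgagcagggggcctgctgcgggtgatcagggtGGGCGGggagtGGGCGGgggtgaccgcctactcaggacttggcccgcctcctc

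Across the kept first exons, 1681 RefSeq promoters could be matched and compared with the 32817 promoters of the whole table over the 250 bases before the start, on both strands. The GC box was in 62.1% of the matched promoters and 32.7% of all, the TATA box in 5.77% and 12.4%, the CCAAT box in 34.5% and 33.8%, and the full cyclic AMP response element in 2.97% and 1.55%. Promoters of the most upstream first exon and of later ones were alike in mean GC content, 60.9% and 60.5%, against 53.2% for the table. These sets held 1158 and 901 of the 1681 promoters. A promoter near first exons of both kinds was in both sets, so their likeness is partly built in. The cyclic AMP element was in 3.54% of promoters of the most upstream first exon and 2.77% of those of later ones. These are matches of letters and say nothing of binding. The whole table was not limited to genes expressed in these cells. Promoters of the 7367 genes with 1 first exon of at least 1 FPKM were not compared. The differences from the table are therefore not shown to be particular to alternative first exons.

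The main question was whether FSH and FBS moved transcripts from 1 first exon of a gene to another. No first exon passed the test, and shares differed about as much between libraries of the same group as across the groups. Shares of treated libraries 1 and 2 lay a median of 5.99 percentage points apart in absolute terms, and those of untreated libraries 1 and 2 lay 8.31 points apart. This median was 12.3 to 13.1 for pairs of 1 group that included library 3, and 9.53 to 14.5 for pairs across the groups. In genes with 2 first exons at least 10000 bases apart, untreated libraries 1 and 2 differed by a median of 12.5 points, and treated libraries 1 and 2 by 6.16 points. The first exon that held more than 50% of a gene differed between treated libraries 1 and 2 in 436 genes and between untreated libraries 1 and 2 in 569 genes, although these libraries were close in gene sums.

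**Figure D1:**
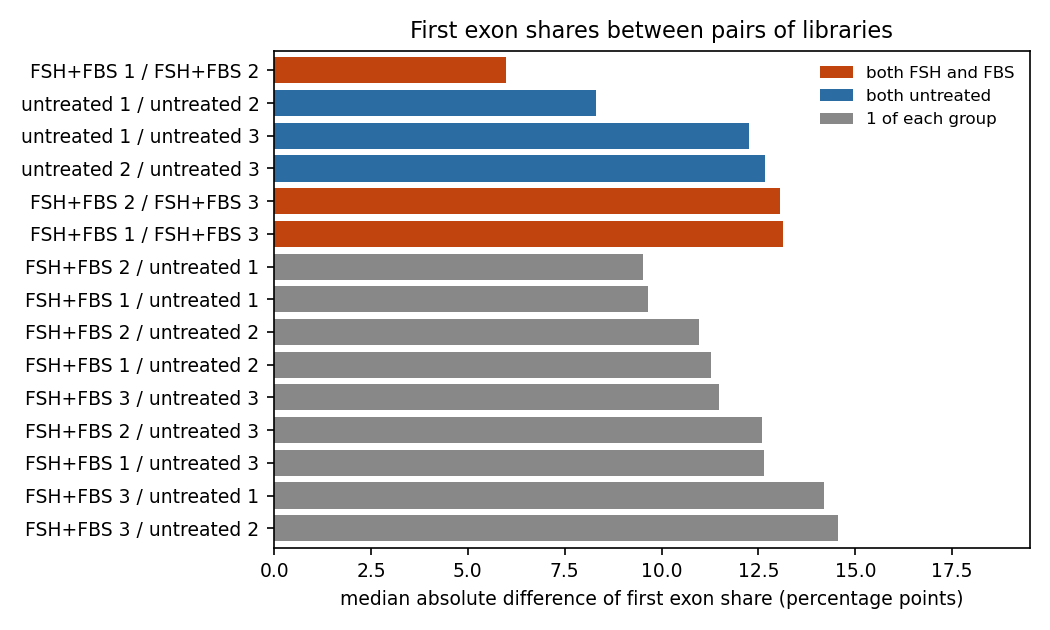
Median absolute difference of first exon share in percentage points (x axis) for each of the 15 pairs of libraries (y axis), over the kept first exons. Pairs within the treated group run from 5.99 to 13.1, pairs within the untreated group from 8.31 to 12.7, and pairs across the groups from 9.53 to 14.5.

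The share was tested as log2 of (first exon FPKM + 1) over (FPKM of the gene's other first exons + 1) with limma and Benjamini-Hochberg adjustment at 0.05; in a gene with 2 first exons only the upstream one was tested. Of 3486 tests 0 passed (0.0%), with a smallest adjusted p of 0.416 by limma, and 136 (3.9%) had an unadjusted p under 0.05. When 200 changed first exons were simulated with 2 samples per group, the same fit recovered 0% of them even at a log2 change of 6; with 3 samples per group it recovered 69.2% at that size. The absence of calls therefore does not show that use was unaltered. With the 6 libraries entered as separate samples 3 first exons passed (0.0861%), in Cct6a and Ptges, and 280 (8.03%) had an unadjusted p under 0.05.

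Without a test, 473 of the 3486 first exons (13.6%) had shares that did not overlap between the 3 libraries of each group. The treated libraries were all higher for 269 of them (7.72%) and the untreated libraries for 204 (5.85%). When untreated library 2 was left out this count was 731 (21.0%), and when treated library 3 was left out it was 940 (27.0%), as fewer libraries have to be apart. The share without overlap was 14.1% for first exons at a RefSeq start of the gene, 14.4% for those at the start of another gene and 13.0% for those with no listed start. It was 14.7% in genes with 2 first exons under 100 bases apart and 13.6% where they were at least 10000 bases apart.

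**Figure D2:**
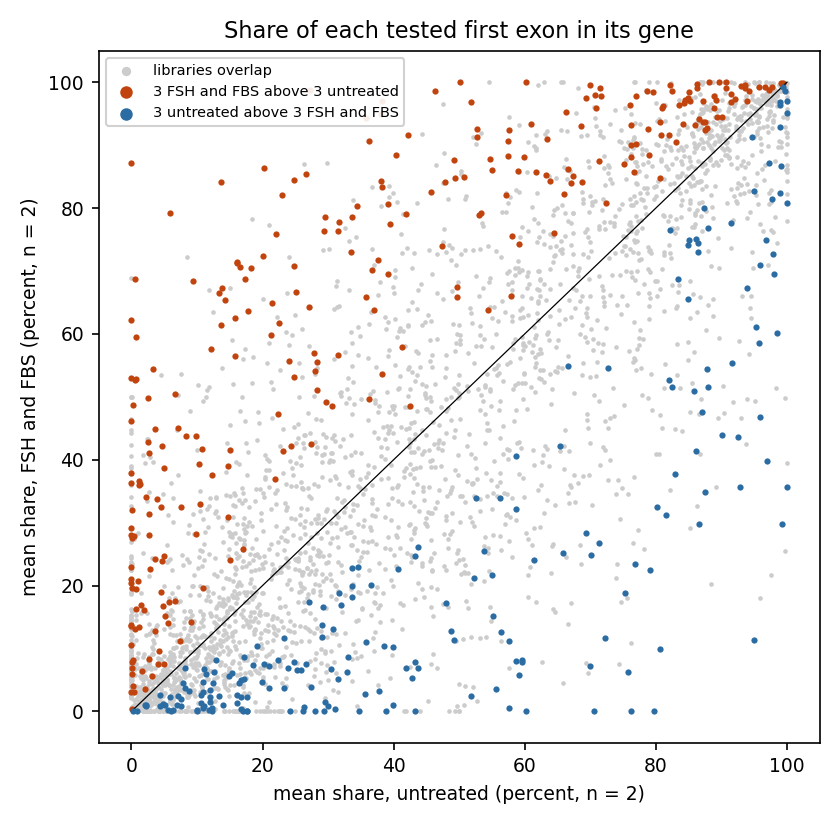
Mean share in percent of each of the 3486 tested first exons in the untreated group (x axis) and in the treated group (y axis), n = 2 per group after libraries 1 and 2 were averaged. The line marks equal shares; orange points (269) had all 3 treated libraries above all 3 untreated ones, blue points (204) the reverse, and grey points overlapped.

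Whether transcription as a whole shifted towards upstream or downstream starts could not be decided with n = 2 per group. The mean share of the most upstream first exon was 53.4% ± 3.31 (SD, n = 2) in treated cells and 53.0% ± 1.55 (SD, n = 2) in untreated samples (exact permutation test, two-sided, p = 1.0). The mean share of the leading first exon was 70.2% ± 0.98 (SD, n = 2) and 68.6% ± 1.48 (SD, n = 2), with an exact two-sided permutation p = 0.667; 0.33 is the smallest p this design allows. Over the 1571 genes with 2 first exons, the upstream share was higher in treated cells in 830 (52.8%). It was higher in all 3 treated libraries than in all 3 untreated ones in 138 of these genes, and the reverse held in 84. Over all 3486 tested first exons, which include the upstream ones of these 1571 genes, the counts were 269 (7.72%) and 204 (5.85%).

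The 12 genes with the largest differences in mean share were taken among tested first exons whose libraries did not overlap, in genes whose mean sum was at least 5 FPKM in both groups, with predicted genes and pseudogenes left out. They were Ptges, Rpl9, Selenop, Galnt1, Cct6a, Ablim1, Tcf4, Snora70, Myo6, Pop5, Sec31a and Zc3h4. These genes were chosen on the share itself, so their values are a description, and no share of theirs passed with n = 2. Outside these conditions some differences were larger: the downstream first exon of Tenm4, which was not tested, held 1.36%, 0.842% and 0% in treated cells and 99.4%, 99.4% and 97.2% in untreated cells. Of the 12, the prostaglandin gene Ptges had the largest difference. Its upstream first exon, at chr2:30929762-30930883, lay 27586 bases before the downstream one. It was at 14.0, 15.3 and 18.8 FPKM in treated libraries 1 to 3 and counted as 0 in every untreated library. The downstream first exon, whose promoter is printed above, was at 2.37, 1.48 and 3.08 FPKM in treated cells and at 9.95, 9.63 and 9.71 FPKM in untreated cells. The upstream share was thus 85.5%, 91.2% and 85.9% against 0 in each untreated library, and the groups did not overlap at either first exon. The limma log2 ratio difference was 5.78 ± 0.87 (SE, adjusted p = 0.653); with 6 separate libraries the limma adjusted p was 0.0198. No RefSeq start lay within 100 bases of the upstream first exon, which is inside the Ptges span.

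Cct6a encodes a subunit of the TRiC chaperonin, and its leading first exon differed between the groups at a nearly constant share within each. First exon 1 held 98.1%, 99.9% and 98.5% in treated cells and 24.5%, 27.0% and 28.7% in untreated cells. First exon 2, which is 2683 bases downstream, was at 0.0635, 0.0596 and 0.0744 FPKM in treated cells and at 123, 116 and 71.1 FPKM in untreated cells. Neither value overlapped between groups, and the limma log2 ratio difference of first exon 2 was -7.57 ± 0.92 (SE, adjusted p = 0.416, or 0.0145 with 6 separate libraries). First exon 1 lies in the span of Psph, a serine synthesis gene listed on the opposite strand, and the summed Psph level itself rose. The labels do not say that counting used strand, so reads of Cct6a and Psph cannot be told apart there.

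In Ablim1, all 3 first exons are at RefSeq starts of the gene and the groups did not overlap at any of them. The most downstream one, 195895 bases from the first, held 14.6%, 24.2% and 0% in treated cells and 76.1%, 96.3% and 75.3% in untreated cells. Its level was 1.10, 2.21 and 0 FPKM against 16.6, 20.3 and 4.04 FPKM. The most upstream one held 24.6%, 26.3% and 61.9% against 2.39%, 0.726% and 15.2%. The limma log2 ratio difference was -3.28 ± 0.94 (SE, adjusted p = 0.956) for the downstream one.

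Selenop, which encodes a secreted selenium carrier, differed in splice donor and not in start. The shorter first exon held 0% in all treated libraries and 69.3%, 60.1% and 88.0% in untreated libraries, in which it was at 72.2, 73.1 and 52.4 FPKM. The longer first exon from the same start was at 8.02, 7.51 and 7.93 FPKM in treated cells and at 32.0, 47.7 and 7.0 FPKM in untreated cells, so its level overlapped. Tcf4, a basic helix-loop-helix transcription factor gene, used its most downstream first exon for 87.1%, 71.5% and 89.7% in treated cells and for 7.27%, 24.9% and 12.2% in untreated cells. Sec31a, a gene of the COPII vesicle coat, had a first exon that was counted as 0 in every untreated library. In treated cells it held 46.9%, 34.0% and 83.7%.

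Several of the 12 rested on libraries that were unlike others of their group. For Myo6, a myosin motor gene, the upstream first exon held 90.3%, 2.94% and 88.7% in treated cells, so library 2 was next to the untreated 0.0018%, 2.18% and 0%. The locus named Snora70 begins at the Rpl10 start, and its first exon 3 held 7.72%, 97.9% and 8.15% in treated cells against 99.3% in each untreated library. Rpl9 first exon 3 held 94.7%, 13.3% and 99.2% in untreated libraries, where library 2 has the other catalogue, and at most 4.51e-05% in treated cells. Ribosomal protein genes have near-identical copies, so counts of Rpl9 and Rpl10 are uncertain. In Galnt1 the untreated share of the named first exon was 48.1% in library 1 and 0 in libraries 2 and 3, and in Pop5 it was 75% in library 1 and 0 in the others. In Zc3h4 the shares of first exon 3 were 63.9%, 64.5% and 100% in treated cells and 63.8%, 35.4% and 0% in untreated cells, so the nearest libraries of the groups nearly touched.

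**Figure D3:**
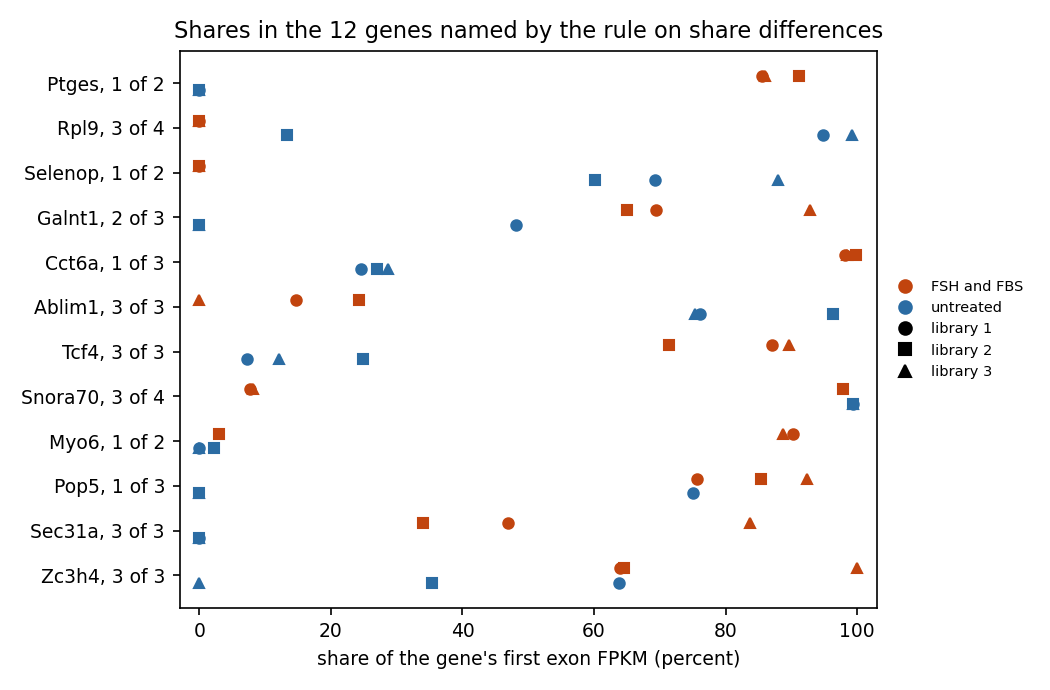
Share in percent (x axis) of 1 first exon in each of the 12 genes (y axis, with the rank of the first exon from upstream and the number kept) in every library. Orange is FSH and FBS, blue is untreated, and the marker gives the library number; Ptges is at 85.5% to 91.2% against 0, while Myo6 has 1 orange square at 2.94%.

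A switch was counted when a first exon held more than 50% of its gene in all 3 libraries of 1 group and less than 50% in all 3 of the other. This was the case in 48 genes (2.23%). Leaving out untreated library 2 gave 86 such genes, and leaving out treated library 3 gave 105. Of the 48, 21 had at least 2 first exons within 100 bases of a RefSeq start of the gene. This could be the same start for both, as in Selenop and St3gal5. In 30 of the 48 the first exons were at least 1000 bases apart, and in 11 they were all under 100 bases apart. A tested first exon had an unadjusted p under 0.05 by limma in 18. By contrast 850 genes (39.5%) kept the same first exon above 50% in all 6 libraries.

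Tsc22d3, which encodes the glucocorticoid-induced leucine zipper protein, was among the most even switches. Its upstream first exon was at 9.71, 10.9 and 12.4 FPKM in treated cells and at 1.65, 1.32 and 1.60 FPKM in untreated cells. The first exon 519 bases downstream was at 3.97, 3.19 and 3.54 FPKM against 7.75, 5.86 and 9.27 FPKM. The upstream share was 67.9%, 67.8% and 74.6% against 17.6%, 17.6% and 14.7% (limma log2 ratio difference 2.98, adjusted p = 0.956), and neither first exon overlapped between groups.

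Pdgfa, which encodes a platelet-derived growth factor chain, had an upstream first exon at 8.02, 9.89 and 7.73 FPKM in treated cells and at 0.604, 0.631 and 1.13 FPKM in untreated cells, and its downstream first exon, 1050 bases on, overlapped between groups. In Lrrfip1 both first exons were higher in every treated library than in any untreated one. The first exon 54868 bases downstream was at 25.5, 25.7 and 27.6 FPKM in treated cells and at 0.89, 1.25 and 0.33 FPKM in untreated cells. The upstream first exon was at 7.93, 11.3 and 3.64 FPKM against 2.78, 2.30 and 0.662 FPKM. Srpk2 held 53.5%, 52.0% and 86.0% at its downstream, GC-poor start in treated cells and 7.0%, 43.8% and 0% in untreated cells. St3gal5, a sialyltransferase gene, has 1 start with a pair of donors: the shorter first exon held 80.6%, 73.7% and 89.4% in treated cells and 35.7%, 35.4% and 40.8% in untreated cells. Sec23b, another COPII gene, has starts 27 bases apart, and the downstream one held 71.6%, 70.2% and 79.8% against 31.3%, 43.5% and 37.7%.

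**Figure D4:**
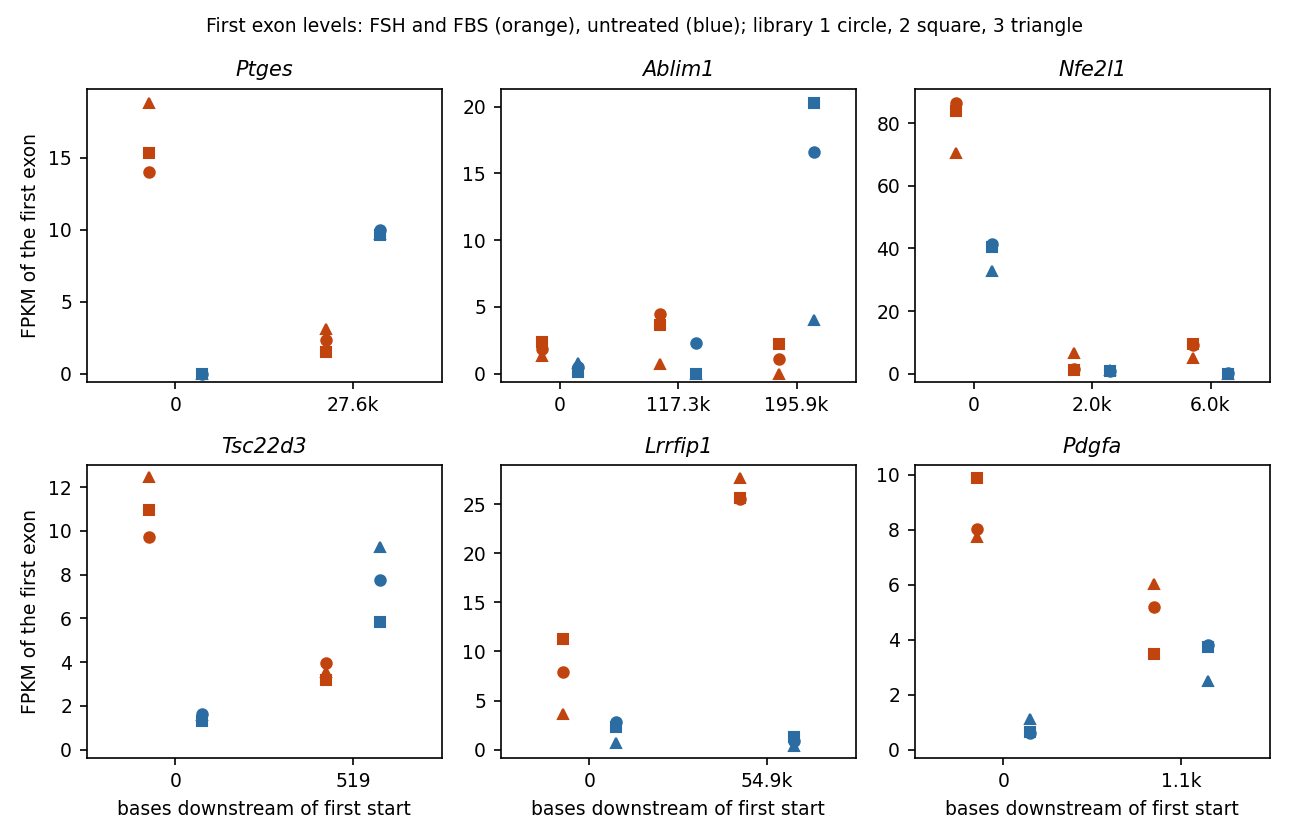
First exon level in FPKM (y axis) in each library against the position of the first exon, in bases from the most upstream start (x axis), for Ptges, Ablim1, Nfe2l1, Tsc22d3, Lrrfip1 and Pdgfa. Orange is FSH and FBS, blue is untreated, and the marker gives the library number; in Ptges and Tsc22d3 the groups are apart at each first exon in opposite directions.

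Other genes had several first exons in use in every library. At least 2 first exons each held 20% or more in all 6 libraries in 130 genes (6.04%), although the share of a first exon there still ranged over a median of 26.6 points between libraries. Casc3, a gene of the exon junction complex, divided its level in much the same way in all libraries, with the upstream first exon, which is at the start of the neighbouring gene Msl1, at 62.0%, 64.1% and 57.7% in treated cells and at 57.1%, 61.3% and 67.6% in untreated cells. Cd151, a tetraspanin gene, used a pair of donors from the same start, the shorter at 56.5%, 56.0% and 44.5% against 43.2%, 42.4% and 46.7%. For Tpm1, the tropomyosin gene, the upstream share was 32.6%, 34.4% and 34.3% in treated cells, and 69.6%, 71.4% and 34.7% in untreated cells. Untreated library 3 thus lay with the treated libraries.

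The pathway lists gave 0 called first exons in each of 10 lists by limma. Their shares of tested first exons without overlap are to be read against the 13.6% over all 3486, and most rest on a handful of first exons. In the TGF-beta, BMP, YAP and actin list, 18 of 61 genes had alternative first exons, and 8 of 37 tested first exons did not overlap (21.6%, against 13.6% over all; 5 higher in treated cells, 3 higher untreated). Their median absolute share difference was 13.5 points, against 9.58 over all tested first exons. The matrix, adhesion and junction list had 8 of 37 genes and 14 tested first exons; 2 did not overlap (14.3%, near the 13.6% over all), and 3 had an unadjusted p under 0.05 (21.4%, against 3.9% over all). In Spp1 (osteopontin) the longer donor form held 0.574%, 0.0446% and 0.206% in treated cells and 6.54%, 7.06% and 4.50% in untreated cells, while the shorter form from the same start held 98.9% to 99.5% and 91.8% to 94.8%.

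In the list of gonadotropin, cyclic AMP and EGF signalling, 13 of 46 genes were included and 3 of 20 tested first exons did not overlap (15%, near the 13.6% over all). Nr4a1, an immediate-early orphan receptor gene, had an upstream first exon that was counted as 0 in every treated library. In untreated libraries it held 11.8%, 43.5% and 14.1%. Runx2, a transcription factor gene with well-known distal and proximal promoters, had its most downstream first exon, 78621 bases from the first, at 10.3%, 14.7% and 9.74% in treated cells and at 31.0%, 29.3% and 85.2% in untreated cells. The level of that first exon was 3.90, 5.46 and 2.92 FPKM against 1.72, 1.90 and 3.14 FPKM, while the most upstream one was at 28.5, 27.4 and 24.3 FPKM against 3.77, 3.80 and 0.0134 FPKM. In Creb1 the shorter donor form held 62.2% and 47.6% in treated libraries 1 and 2 but 0% in library 3, and at most 1.31% in untreated cells.

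Of the genes best known for alternative promoters, Crem had 4 kept first exons, and the shares of all 4 overlapped between groups. The most downstream one held 47.0%, 41.9% and 32.7% in treated cells and 26.3%, 46.4% and 37.3% in untreated cells, with levels of 5.53, 3.43 and 4.14 FPKM against 2.33, 4.33 and 2.96 FPKM. Gnas held 97.2%, 18.7% and 99.9% at its downstream start in treated cells and 86.1%, 96.4% and 88.0% in untreated cells, so 1 library stood apart. In Vegfa the upstream first exon held 94.0% to 99.9% in treated cells, and 99.7%, 68.9% and 99.0% in untreated cells. Bcl2l1 also overlapped, at 70.7%, 19.6% and 53.7% for the upstream first exon in treated cells against 2.01%, 5.44% and 60.3%. Runx1 had 1 start with a pair of donors, and the longer form held 93.3% to 96.9% in treated cells and 84.9%, 0% and 100% in untreated cells.

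The transcription, splicing and translation list had 25 of 70 genes and 7 of 52 tested first exons without overlap (13.5%, against 13.6% over all). Eif1, an initiation factor gene, had its downstream first exon at 2.64%, 2.07% and 2.16% in treated cells and at 13.1%, 12.9% and 10.9% in untreated cells, both narrow ranges. Of the 15 first exons tested in the stress response, amino acid and redox list, 4 did not overlap (26.7%, against 13.6% over all). Nfe2l1 first exon 3, at the second promoter printed for it, was at 9.06, 9.40 and 5.06 FPKM in treated cells and at 0.14, 0 and 0 FPKM in untreated cells, and its share was 9.32%, 9.92% and 6.14% against 0.33%, 0% and 0%. First exon 1 stayed the leading one at 85.7% to 89.1% against 96.7% to 98.2%, and its FPKM was higher in each treated library than in any untreated one. In the apoptosis, survival and autophagy list, 1 of 17 tested first exons did not overlap (5.88%, below the 13.6% over all). It was that of the death receptor gene Tnfrsf10b. The downstream first exon of this gene held 50.5%, 53.3% and 76.6% in treated cells and was counted as 0 in untreated cells.

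In the steroid, sterol and lipid list 2 of 11 tested first exons did not overlap (18.2%, against 13.6% over all). One was that of Lpin2, a phosphatidate phosphatase gene, with 95.7%, 96.2% and 89.1% at the upstream first exon against 69.5%, 79.5% and 30.9%. The other was a Fdps first exon at the start of the neighbouring gene Rusc1, with 1.38%, 3.62% and 3.59% against 0. The granulosa identity and imprinted list had 1 of 5 without overlap (20%), Nnat, whose upstream first exon held 92.5% to 99.6% against 71.0% to 92.4%, so the nearest libraries nearly touched. The glycolysis and hypoxia list had 1 of 7 (14.3%), Aldoa, whose minor upstream first exon held 0.445% to 2.46% against 2.54% to 6.88%. Ptges was the sole gene of the 16 of the cumulus expansion and prostaglandin list that had alternative first exons.

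When the first exons of a gene were summed, 16 genes with alternative first exons differed between the groups, and their first exons mostly differed in the same direction. By limma on log2 of (summed FPKM + 1), 45 of 9732 genes passed (0.462%), 29 higher (0.298%) and 16 lower (0.164%). Among the 2151 genes with alternative first exons 16 passed (0.744%), 8 in each direction, and among the other 7581 genes 29 (0.383%). The median log2 difference was 0.21 over all genes and 0.19 over those with alternative first exons. Replicate numbers met the pairing criterion for gene sums, and with the number as a block 153 genes with alternative first exons passed, 92 higher and 61 lower. Leaving out any 1 library left 0 to 4.

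The genes that fell included the matrix and BMP signal genes Ccn2 and Bmp2. The summed level of Ccn2, a YAP target that encodes connective tissue growth factor, was 1.05, 1.32 and 0.709 FPKM in treated cells and 334, 141 and 185 FPKM in untreated cells, with a limma log2 difference of -6.77 ± 0.34 (SE, adjusted p = 0.0175). Its level in untreated library 2 was listed wholly at another first exon, 1733 bases upstream, than in every other library. No kept first exon of Bmp2 was listed in a treated library, so its level there was counted as 0. In the untreated libraries Bmp2 was at 69.9, 77.8 and 43.2 FPKM (limma adjusted p = 0.0316). Its first exons share a start and differ in donor. The other genes that fell were Fhl1, Fgd5, Edn1 (endothelin 1), Pik3ip1, Grb14 and Apoa1. Theca and stroma markers were lower too, with summed levels of 20.5 to 23.7 FPKM in treated cells and 65.9 to 129 FPKM in untreated cells. Only 2 to 7 of the 14 markers were listed in a library, so few genes carry these sums. Of the 14, 1 had alternative first exons, Dcn, and all of them were counted as 0 in treated cells. Oocyte markers, none of which had alternative first exons, were at 0.26, 0.183 and 28.4 FPKM in treated cells and at 29.3 to 34.8 FPKM in untreated cells. Leukocyte markers were at 2.96 to 8.01 against 9.11 to 12.6 FPKM, with 4 to 7 of 15 listed in a library. Endothelial markers were at 3.37, 2.81 and 0.13 FPKM in treated cells and at 0.02, 0.08 and 0.12 FPKM in untreated cells. Of these 10 markers, 1 or 2 were listed in a library. The part of these cells in the results was not tested, and in bulk RNA fewer cells of a type and less RNA per cell cannot be told apart.

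Grb14, an adaptor of insulin receptor signalling, fell from 570, 590 and 623 FPKM in untreated cells to 88.4, 51.8 and 58.1 FPKM. Both of its main first exons, which lie 47013 bases apart, were lower in every treated library. The upstream one was at 29.7, 23.4 and 29.0 FPKM against 242, 213 and 141 FPKM, and the other at 58.7, 27.5 and 28.7 FPKM against 327, 376 and 480 FPKM. Neither overlapped between groups, while the upstream share did, at 33.6%, 45.2% and 49.9% against 42.4%, 36.1% and 22.5%.

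Apoa1, the apolipoprotein gene, was the exception in which 1 first exon did not follow the sum. Its upstream first exon was at 1.75, 0 and 0 FPKM in treated cells and at 31.8, 35.7 and 32.7 FPKM in untreated cells. The first exon 141 bases downstream was at 2.99, 2.92 and 3.88 FPKM against 2.04, 0.117 and 2.46 FPKM, so that it held 63.1% to 100% in treated cells and 0.327% to 7.0% in untreated cells.

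The genes that rose were Pcyt1a, Pik3c2g, Slc1a5, Psph, Tinagl1, Sdc1, Slc7a3 and Soat2. Slc1a5 and Slc7a3 encode amino acid transporters, Psph a serine synthesis enzyme, Pcyt1a the rate-limiting enzyme of phosphatidylcholine synthesis, and Soat2 a cholesterol esterification enzyme. Pcyt1a was at 80.9, 74.4 and 71.6 FPKM in treated cells and at 13.2, 13.0 and 10.1 FPKM in untreated cells (limma log2 difference 2.59 ± 0.31 SE, adjusted p = 0.0475), and its shorter donor form kept 82.5% to 90.6% against 78.3% to 87.5%. Pik3c2g, a class II phosphoinositide kinase gene, was at 60.8, 59.2 and 60.6 FPKM at its upstream first exon against 5.40, 5.62 and 5.37 FPKM. Its second first exon, 94300 bases downstream, was at 8.41, 16.2 and 8.05 FPKM against 1.12, 0 and 0.996 FPKM, so both were higher in every treated library and the shares overlapped. In Psph the sum was even while the first exons were not. In treated libraries 1 to 3 the upstream one was at 0.492, 0.368 and 61.0 FPKM and the downstream one at 74.3, 89.0 and 0 FPKM. The upstream one overlaps Cct6a first exon 1, where reads of Psph and Cct6a cannot be told apart. The Soat2 first exon that led, at 99.1, 64.9 and 236 FPKM against 3.15, 0 and 4.22 FPKM, starts in the span of the neighbouring gene Igfbp6.

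**Figure D5:**
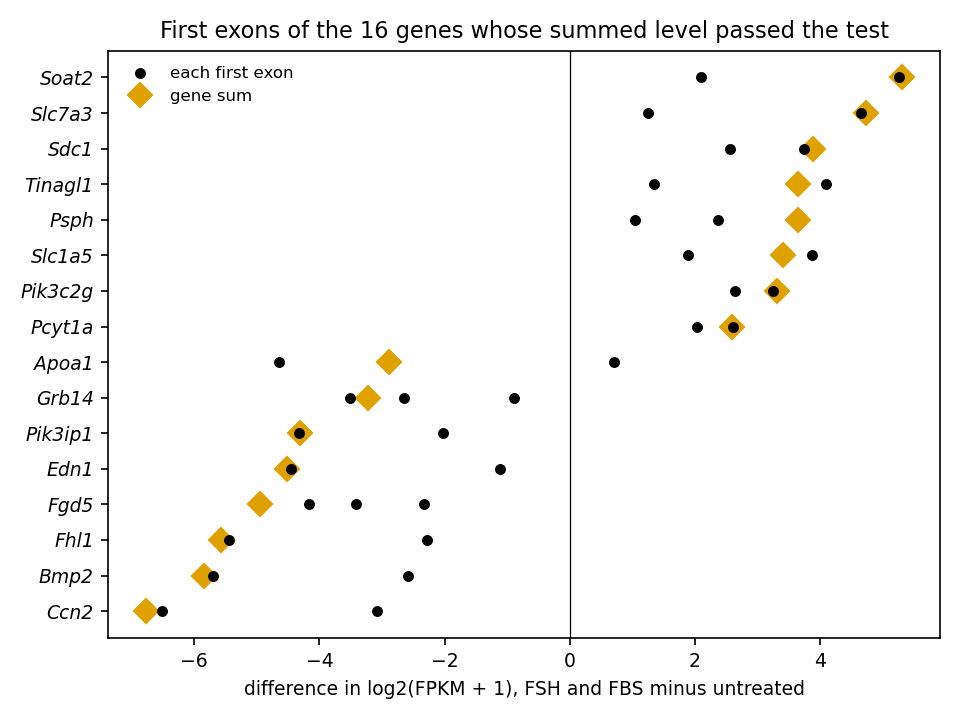
Difference in log2(FPKM + 1) between FSH and FBS and untreated samples (x axis) for the 16 genes with alternative first exons whose summed level passed the limma test (y axis). Black points are the 34 first exons and diamonds the gene sums; 33 of the 34 lie on the side of their sum, and the other is the downstream first exon of Apoa1.

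Of the 34 first exons of these 16 genes, 33 differed in the direction of the sum. These genes were chosen by their sums, so this count is a description. Over all 2151 genes, the first exons of a gene all had the same sign of level difference in 1028 (47.8%). Tested one by one for level, 2 of 5057 first exons passed by limma (0.0395%), Ccn2 first exon 2 (adjusted p = 0.0284) and Rpl9 first exon 3, while 323 (6.39%) had an unadjusted p under 0.05. Neither passed when any 1 library was left out. In untreated libraries 1 to 3, Ccn2 first exon 2 was at 334, 0 and 185 FPKM. The average of libraries 1 and 2 fell near library 3 only through the 0 of library 2, which has the other catalogue. Rpl9 first exon 3 also had a share in untreated library 2 that was unlike those of untreated libraries 1 and 3.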

How the data were processed

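Only the 6 RNA libraries were analysed; the small RNA samples were not. Per the submitters' processing notes, mapping used HISAT2 2.0.1. Assembler, annotation and filters are not given in the sources used here. Deposited tables list transcript start events with a gene ID and an FPKM value, which the authors normalized to length and library. The build is not named, but 936 kept first exons lay exactly at a RefSeq GRCm38.p6 start and 0 did after a shift of 1000 bases. Gene symbols were found for 2148 of 2151 genes. Members, gene lists and tests were chosen with earlier results of these data known.

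Libraries 1 and 2 of each group were averaged. Shares, levels and gene sums were tested with limma 3.58.1 in R 4.3.3 on log2 values with a pseudocount of 1 (trend, Benjamini-Hochberg adjustment at 0.05, no covariate); log2 differences understate changes of low genes. Mean shares were compared by exact permutation. The share fit was tested on simulated data. Named genes were the 12 with the largest mean share difference (tested, without overlap, mean sum of at least 5 FPKM in both groups, no predicted genes or pseudogenes), up to 3 per list, genes known for alternative promoters, and called first exons; switch genes, genes with several first exons in use, Tenm4 and Apoa1 were named after their values were seen. The pairing criterion was an r of deviations over 0.1 in every pair of same-numbered libraries. Gene sums met it (r = 0.25, 0.19 and 0.46), and shares did not (r = 0.065, 0.041 and 0.148). With libraries 1 and 2 averaged, r in shares was 0.151. Figures were drawn with matplotlib.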

Additional observations from a re-analysis of the deposited data

How the results depend on the processing

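Every test had n = 2 per group, and depth is unknown. Calls of first exon use were 0, but 3 with 6 separate libraries, and 0 to 2 when 1 library was left out. Level calls (2) were 85 with 6 separate libraries, 0 with a replicate block of 4 samples, 43 with the replicate block of 6, 5 at a mean of at least 5 FPKM, and 0 with pseudocount 5, with only first exons listed in all 6 libraries, or without any 1 library. Gene sum calls (16) were 186 with 6 separate libraries, 153 and 274 with the replicate block of 4 samples and 6 libraries, 1 with pseudocount 0.1, 1 at a mean above 0.1 FPKM, 40 at 5 FPKM, 2 after median-of-ratios scaling, and 0 to 4 without 1 library. The block left share calls at 0. For shares the replicate numbers did not meet the pairing criterion over the library pairs, though r was 0.151 with libraries 1 and 2 averaged.

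The upstream mean share difference ran from -0.68 (without untreated library 3) to 2.80 points (without treated library 3), and that of the leading first exon from 0.81 to 2.31. In alternatives chosen after seeing the data, the 473 first exons without overlap became 731 when untreated library 2 was left out and 940 when treated library 3 was, and the 48 switches 86 and 105.

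Of the 627 alternative values for named first exons, 615 kept direction and side of the threshold. Some of these first exons were named for a large share difference, and the simulated fit with 2 samples per group recovered 0% of changes. The count therefore says little about how stable the results are. Reversed log2 ratios were those of Ccn2 first exon 1 (-0.76 without untreated library 1, in a range of -0.76 to 7.01 over libraries left out), Ndrg1 (0.31 without treated library 3, range -1.51 to 0.31) and Nnat (0.062, 0.11 and 0.045 without treated library 2, treated library 3 and untreated library 2, in a range of -1.05 to 0.11, and 1.69 with pseudocount 0.1). On the arcsine scale of the share, Ccn2 was at -0.29, Ndrg1 at 0.14 and Nnat at 0.24. Cct6a and Ptges passed with 6 separate libraries, and Snora70 first exon 3 without treated library 2. The cause was not tested.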
